A study of Mus musculus with 7 samples.

Results

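Genomic imprinting is the expression of a gene from only 1 parental allele, set by DNA methylation that is laid down in the germline, protected in the early embryo and erased again in the next generation's germ cells. TET1 oxidises 5-methylcytosine and is known to take part in that erasure, and many imprinted genes control fetal growth and are shut down in the liver after birth. The 10 imprinted genes H19, Igf2, Igf2r, Peg3, Meg3, Mest, Plagl1, Impact, Peg10 and Snrpn were chosen by name, matched by symbol and joined across livers by Ensembl identifier, out of 51426 genes counted. In the mouse, H19, Igf2r and Meg3 are usually read from the maternal allele and the other 7 from the paternal allele. Read counts per gene sum both alleles, so a level here does not tell which allele was read.

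RNA was sequenced from livers of male mice labelled C57BL/6J, 3 wild type (WT) and 4 with a whole-body Tet1 knockout (TET1 KO), and each library is 1 mouse. All 7 mice were fed a high-fat diet (HFD) for 16 weeks from 8 weeks of age, and no group on normal chow is compared here. The knockout came from heterozygotes of a purchased line with C57BL/6 and 129S4 ancestry that was made in embryonic stem cells. The deletion was present from conception onward and in all tissues, so an effect in the liver and one that began in the germline, the embryo or another organ cannot be told apart.

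Counts assigned to genes ran from 15005277 to 22746138 per liver, and 14754 genes were tested. For Tet1 itself, 1, 4 and 1 reads were counted in WT and 2, 1, 4 and 1 in TET1 KO livers (exact two-sided permutation test on normalised counts scaled to library size, CPM, p = 0.686), so at this depth it does not check the genotype labels. Hepatocyte markers summed to 74190 to 95820 CPM in WT and 85920 to 96400 CPM in TET1 KO livers, with Alb and Hnf4a present in all 7. In the first principal component of all genes (48.7% of the variance), WT livers lay at -56.9 to -19.4 and TET1 KO livers at 1.60 to 57.1. Cholangiocyte markers summed to 41.7 to 49.0 CPM in WT and 68.5 to 85.2 CPM in TET1 KO livers, and all 6 tested had a log2 fold change above 0 (median 1.11), 5 of them with an unadjusted p under 0.05 (26.3% of all genes) and 0 called by edgeR (lowest adjusted p = 0.0569). For the summed cholangiocyte markers the exact two-sided permutation p was 0.0286, the smallest possible. Taken singly, 3 of the 6 tested did not overlap between the genotypes, all upward, against 11.7% of all genes. Krt19 at 1.06 CPM in TET1 KO replicate 2 and Krt7 at 0.767 CPM in TET1 KO replicate 3 lay within their WT ranges. TET1 KO replicate 4 stood apart for 3 of these duct markers, with Krt19 at 6.68 CPM against 0.871 to 1.69 CPM elsewhere, Epcam at 4.87 CPM and Krt7 at 2.69 CPM, while its Sox9, at 9.46 CPM, was the lowest of the TET1 KO livers and its summed level, 75.2 CPM, was within their range. Stellate and mesenchymal markers summed to 148.5 to 266.5 CPM in WT and 147.0 to 176.9 CPM in TET1 KO livers, with 8 of 12 below 0 (7211 of 14754 genes in all) and 1 called as lower (1.15% of all genes), the pericyte gene Rgs5 (22.7 to 29.5 CPM in WT, 13.7 to 16.5 CPM in TET1 KO, edgeR adjusted p = 0.0460). Of these 12, 4 had an unadjusted edgeR p under 0.05 (26.3% of all genes). Groups did not overlap for 2 downward (10.8% of all genes) and 0 upward. Endothelial markers (241.5 to 250.8 CPM in WT, 208.3 to 254.2 CPM in TET1 KO) and macrophage and leukocyte markers (178.9 to 294.5 and 137.8 to 279.6 CPM) overlapped between the genotypes with 0 of 10 called by edgeR in each list, where 2 and 1 had an unadjusted p under 0.05. Adipocyte markers summed to 20.6 CPM in TET1 KO replicate 2 against 0.278 to 3.30 CPM in the other livers, with Adipoq at 4.23 CPM there. The part of these markers in the results on imprinted genes was not tested.

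One of the 10 genes changed at an adjusted p under 0.05. Meg3, a maternally expressed long noncoding RNA, rose to 4.40 times its WT mean in the TET1 KO livers. Snrpn, Igf2r and Impact were lower in every TET1 KO liver than in every WT liver, yet none of the 3 passed the threshold in edgeR's quasi-likelihood test. Peg3, Mest and Plagl1 overlapped between the genotypes, and H19, Igf2 and Peg10 stood close to the count floor in both. Of the 14754 genes tested, 2.02% were called in either direction, 0.874% as higher and 1.15% as lower, beside 1 of the 8 imprinted genes tested. At an unadjusted p under 0.05 there were 4 of 8, against 26.3% of all genes. Groups did not overlap for 1 gene upward and 3 downward, against 11.7% and 10.8% of all genes in those directions and 22.5% in either. The median log2 fold change of the 8 was -0.20, and that of all genes 0.01. Leaving out WT replicate 2, WT replicate 3, TET1 KO replicate 2 or TET1 KO replicate 3 left 0 calls among the 10 genes. Leaving out TET1 KO replicate 4 gave 2. The filter was rerun in these fits, and 7 to 9 of the 10 passed it. DESeq2 called 3 of the 8, against 9.49% of all genes.

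**Figure D1:**
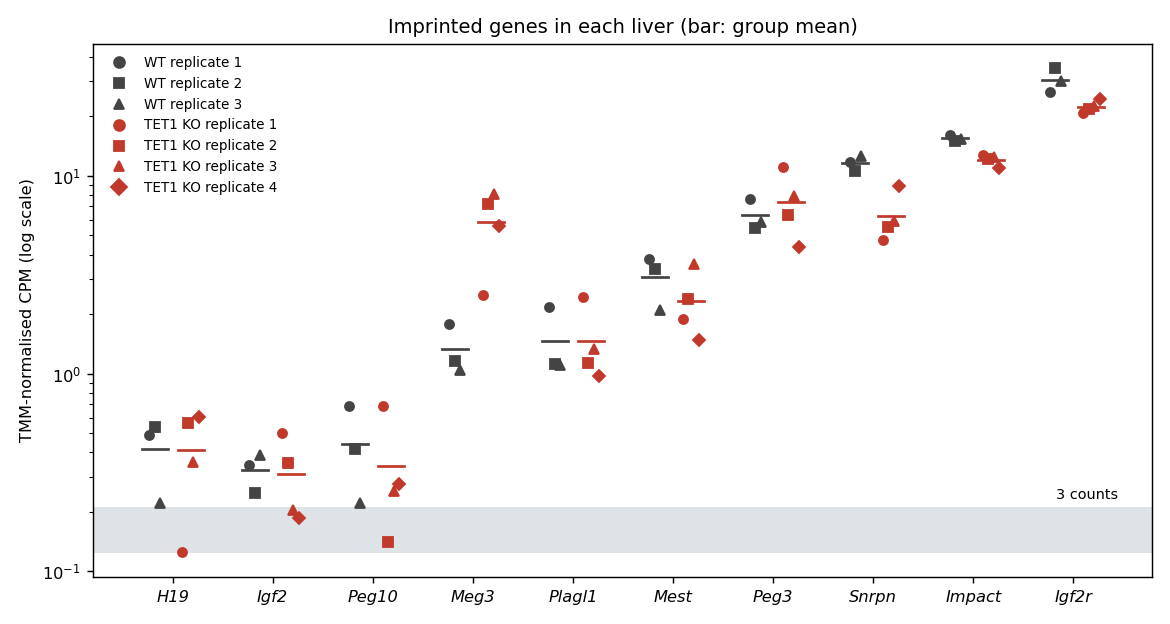
TMM-normalised CPM (log axis) of the 10 imprinted genes in each of 3 WT (grey) and 4 TET1 KO (red) livers, with symbols for the replicate, a bar for the group mean and a shaded band for the level of 3 counts (0.124 to 0.211 CPM). The TET1 KO symbols lie above all WT symbols for Meg3 and below them for Snrpn, Impact and Igf2r, while H19, Igf2 and Peg10 sit just above or in the band.

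The promoters of the 3 genes with the smallest adjusted p among the 10 are shown. ZFP57, which binds the methylated hexamer TGCCGC, holds imprinted control regions in place. The windows shown are promoters, and whether any of them lies in a control region was not tested, so a missing hexamer says nothing about that region. Each window is the 300 bases from 250 before to 50 after an annotated start, from RefSeq on GRCm38.p6, 5′ to 3′ on the gene's strand. Capitals mark TGCCGC or its reverse complement GCGGCA, and also the cAMP response element TGACGTCA, which reads the same on both strands. For Snrpn, the start shared with Snurf was taken out of 4 annotated starts, and for Meg3 the upstream one of 2.
Meg3 chr12:109540746-109541045, plus strand: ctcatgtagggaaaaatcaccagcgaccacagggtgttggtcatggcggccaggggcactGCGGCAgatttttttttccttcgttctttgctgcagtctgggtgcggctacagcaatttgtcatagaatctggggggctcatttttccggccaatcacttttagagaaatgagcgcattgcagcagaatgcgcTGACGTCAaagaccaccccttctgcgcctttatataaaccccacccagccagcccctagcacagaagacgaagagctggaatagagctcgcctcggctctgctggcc
Snrpn chr7:60005150-60005449, minus strand: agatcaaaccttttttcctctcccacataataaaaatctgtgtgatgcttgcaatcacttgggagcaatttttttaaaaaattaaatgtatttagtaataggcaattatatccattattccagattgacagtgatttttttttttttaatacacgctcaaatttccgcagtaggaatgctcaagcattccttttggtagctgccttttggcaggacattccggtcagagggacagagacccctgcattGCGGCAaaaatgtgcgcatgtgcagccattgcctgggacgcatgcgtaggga
Igf2r chr17:12769657-12769956, minus strand: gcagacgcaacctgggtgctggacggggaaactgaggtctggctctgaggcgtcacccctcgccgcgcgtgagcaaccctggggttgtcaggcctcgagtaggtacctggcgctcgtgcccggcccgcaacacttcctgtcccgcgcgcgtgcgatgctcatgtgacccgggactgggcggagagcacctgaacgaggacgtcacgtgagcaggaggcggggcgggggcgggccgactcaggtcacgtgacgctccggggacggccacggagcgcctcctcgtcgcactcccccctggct
The Meg3 window held 1 hexamer, 1 cAMP response element and 13 CpG dinucleotides, the Snrpn window 1 hexamer and 7 CpGs, and the Igf2r window neither motif and 34 CpGs. Among 32851 windows of this length, 11.6% held the hexamer, 1.79% held TGACGTCA and the median number of CpGs was 7. Windows were matched for 7 of the 10 genes, and 6 of their 16 windows, from 5 genes, held the hexamer. The 6 include a pair of Mest windows 3 bases apart, and the windows at the other starts of Meg3 and Snrpn held none. TGACGTCA was found in 2 of the 16 windows, the one shown for Meg3 and that of Peg3, a gene whose groups overlapped. H19, Impact and Peg10 were not matched. No methylation was measured in these libraries, and a match of letters is not evidence of binding.

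Meg3 (ENSMUSG00000021268, GRCm38 chr12:109540996-109571729) lies in the imprinted Dlk1-Dio3 domain, where the maternal chromosome yields a string of noncoding RNAs and the paternal one Dlk1, Rtl1 and Dio3. The 3 WT livers had 1.77, 1.16 and 1.049 CPM of Meg3 (36, 28 and 19 counts), and the 4 TET1 KO livers 2.51, 7.19, 8.08 and 5.57 CPM (40, 102, 158 and 120 counts). TET1 KO replicate 1 was the nearest to the WT livers and still above them all, whereas the rest of the TET1 KO livers stood well apart. Group means were 1.33 ± 0.389 CPM (SD, n = 3) and 5.83 ± 2.45 CPM (SD, n = 4). The log2 fold change was 2.13 (SE 0.39, 95% interval 1.28 to 2.99, edgeR quasi-likelihood adjusted p = 0.0232). The exact two-sided permutation test on mean CPM gave p = 0.0571, where 0.0286 is the smallest p that 3 against 4 mice allow. Without WT replicate 2 the edgeR adjusted p was 0.149, without WT replicate 3 0.0611, without TET1 KO replicate 2 0.0593 and without TET1 KO replicate 3 0.0686, and the log2 fold change kept between 1.92 and 2.38 with any 1 liver left out.

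Rian, another noncoding RNA of the maternal chromosome, starts 32.2 kb beyond the end of Meg3. Its counts were 10, 20 and 4 in WT and 9, 30, 48 and 39 in TET1 KO livers. As with Meg3, TET1 KO replicates 2, 3 and 4 were above all WT livers, but TET1 KO replicate 1 fell within the WT range. The log2 fold change of Rian was 1.70 (SE 0.52), with an edgeR adjusted p of 0.0893 and a DESeq2 adjusted p of 0.0314. DESeq2 was the only 1 of 13 alternatives in which Rian passed the threshold. Mirg, the host of a microRNA cluster 73.3 kb farther on, had 0, 1 and 0 counts in WT and 1, 1, 10 and 5 in TET1 KO livers and did not pass the filter. Without the filter, edgeR gave Mirg a log2 fold change of 3.41 (95% interval 0.76 to 6.06, adjusted p = 0.149), a value that depends on the prior count at such low numbers. The 2 highest counts of Mirg were those of TET1 KO replicates 3 and 4. Of the paternally expressed protein-coding genes of the domain, Dlk1 and Rtl1 reached at most 1 count in any liver. Dio3, the deiodinase that inactivates thyroid hormone, reached at most 3. At this depth their change was not detectable. The annotated spans of Meg3 and Rtl1 overlap by 6830 bases, and that of Rtl1 also reaches past the start of Rian. The strand setting used in counting is not given in the sources used here.

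**Figure D2:**
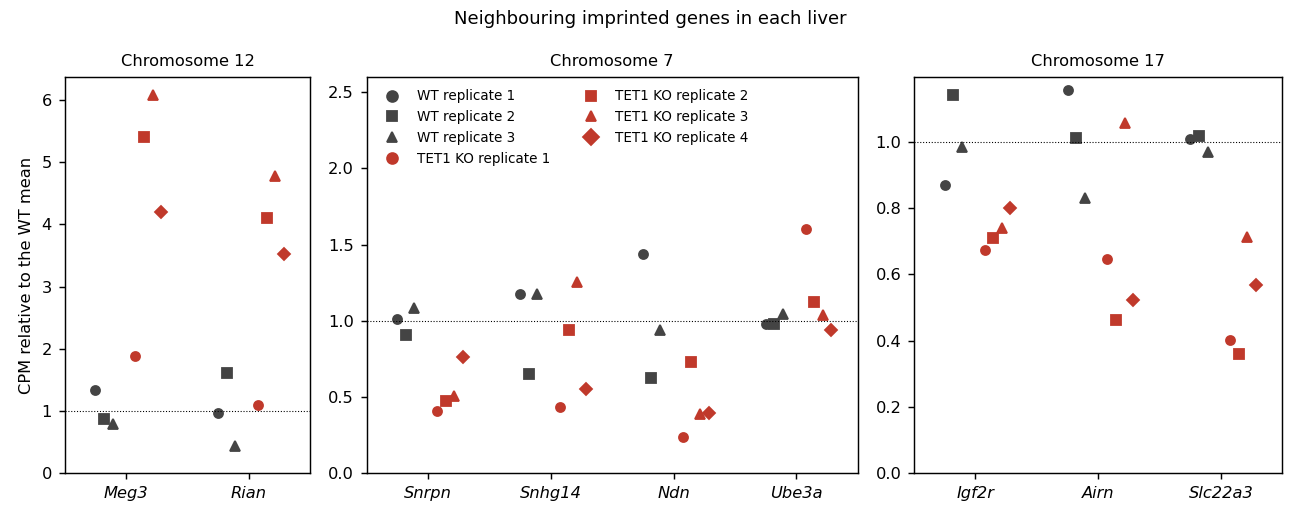
CPM of neighbouring imprinted genes at the Meg3, Snrpn and Igf2r loci, each divided by its own WT mean (dotted line at 1), with 1 symbol per liver, grey for WT and red for TET1 KO. The vertical scales differ between panels and all start at 0. TET1 KO replicates 2, 3 and 4 are high for both Meg3 and Rian, Snrpn and Slc22a3 are low in all 4 TET1 KO livers, and Ube3a and Snhg14 overlap between the genotypes.

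Snrpn (ENSMUSG00000102252, GRCm38 chr7:59982495-60450177) encodes SmN, a protein of the spliceosome's small nuclear ribonucleoproteins that is most abundant in brain, and sits in the region whose paternal loss causes Prader-Willi syndrome in people. The WT livers had 11.8, 10.6 and 12.6 CPM of Snrpn (240, 255 and 229 counts), and the TET1 KO livers 4.76, 5.49, 5.93 and 8.91 CPM (76, 78, 116 and 192 counts). TET1 KO replicate 4 lay nearest to the WT livers, as it did on the first principal component of all genes, and all 4 TET1 KO livers lay below the lowest WT liver. The means were 11.7 ± 1.04 CPM (SD, n = 3) and 6.27 ± 1.82 CPM (SD, n = 4). The log2 fold change was -0.89 (SE 0.21, 95% interval -1.36 to -0.42), with an edgeR adjusted p of 0.0575 and an exact two-sided permutation p of 0.0571. Settings that passed the threshold included DESeq2 (adjusted p = 0.00681), scaling to library size only (edgeR adjusted p = 0.0471), no filter on low counts (edgeR adjusted p = 0.0352) and the fit without TET1 KO replicate 4 (edgeR adjusted p = 0.0158).

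The neighbours of Snrpn did not give 1 common picture. Ndn, which encodes the growth suppressor necdin, is paternally expressed and lies 1898 kb away. Ndn had 1.53, 0.663 and 0.993 CPM in WT and 0.251, 0.775, 0.409 and 0.418 CPM in TET1 KO livers, with TET1 KO replicate 2 inside the WT range (log2 fold change -1.20, SE 0.45, edgeR adjusted p = 0.132). Snhg14, the long transcript that runs from the Snrpn region into Ube3a, gave a log2 fold change of -0.32 (95% interval -1.11 to 0.47). Ube3a, a ubiquitin ligase that is imprinted in neurons and read from both alleles elsewhere, gave 0.23 (95% interval -0.16 to 0.62). Mkrn3 was at most 14 counts in any liver and gave a log2 fold change of 0.08 (95% interval -1.33 to 1.49), which turned to -0.01 with scaling to library size only. Magel2 was at 0 counts in all 7 livers. Snurf, whose annotated span lies within that of Snrpn over 22705 bases, had 1 to 6 counts, so how reads of the shared transcript were divided between the 2 names is uncertain, as it is for Snhg14, which spans Snrpn too.

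Igf2r (ENSMUSG00000023830, GRCm38 chr17:12682406-12769706) encodes the receptor that carries mannose 6-phosphate-tagged enzymes to lysosomes and clears IGF2 from outside the cell. The WT livers had 26.6, 34.99 and 30.2 CPM of Igf2r (541, 844 and 547 counts), and the TET1 KO livers 20.7, 21.7, 22.6 and 24.5 CPM (330, 308, 442 and 528 counts). The TET1 KO livers formed a narrow group just under the lowest WT liver, WT replicate 1. Means were 30.6 ± 4.195 CPM (SD, n = 3) and 22.4 ± 1.63 CPM (SD, n = 4), a log2 difference of -0.45 (SE 0.14, 95% interval -0.75 to -0.15, edgeR adjusted p = 0.0874). The exact two-sided permutation test gave p = 0.0286, the smallest that the design allows, unadjusted for the 10 imprinted genes so tested. DESeq2 gave an adjusted p of 0.0480, so a lower Igf2r was called there and not by edgeR.

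Airn, the paternally expressed noncoding RNA that silences Igf2r on the paternal chromosome and overlaps it by 28396 bases on the opposite strand, gave a log2 fold change of -0.55 (95% interval -1.36 to 0.26, edgeR adjusted p = 0.349). Slc22a3, an organic cation transporter imprinted in the placenta, lies 174.7 kb from Igf2r. The WT livers had 6.94, 7.01 and 6.68 CPM of Slc22a3 and the TET1 KO livers 2.76, 2.47, 4.91 and 3.90 CPM. The WT values lay close together and all TET1 KO livers were below them, at a log2 fold change of -0.96 (SE 0.24) and an edgeR adjusted p of 0.0616. It passed the threshold in 4 of 14 alternatives, among them DESeq2 with an adjusted p of 0.00867. Slc22a2, the related transporter between them, had 2, 6 and 2 counts in WT and 0 in all 4 TET1 KO livers, where 3 counts were the floor. It did not pass the filter, and without the filter its edgeR adjusted p was 0.117.

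Impact (ENSMUSG00000024423) encodes an inhibitor of the kinase GCN2, which senses amino acid shortage. The WT livers had 16.1, 15.0 and 15.4 CPM of Impact (328, 362 and 279 counts), and the TET1 KO livers 12.7, 12.1, 12.5 and 10.99 CPM (203, 172, 244 and 237 counts). Both genotypes were tight and did not overlap. Means were 15.5 ± 0.578 CPM (SD, n = 3) and 12.1 ± 0.761 CPM (SD, n = 4), with a log2 fold change of -0.36 (SE 0.13, 95% interval -0.65 to -0.07). The edgeR adjusted p was 0.125, and none of the 14 alternative settings brought it under 0.05 (range 0.0764 to 0.317). The exact two-sided permutation p of 0.0286 was again the smallest possible.

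**Figure D3:**
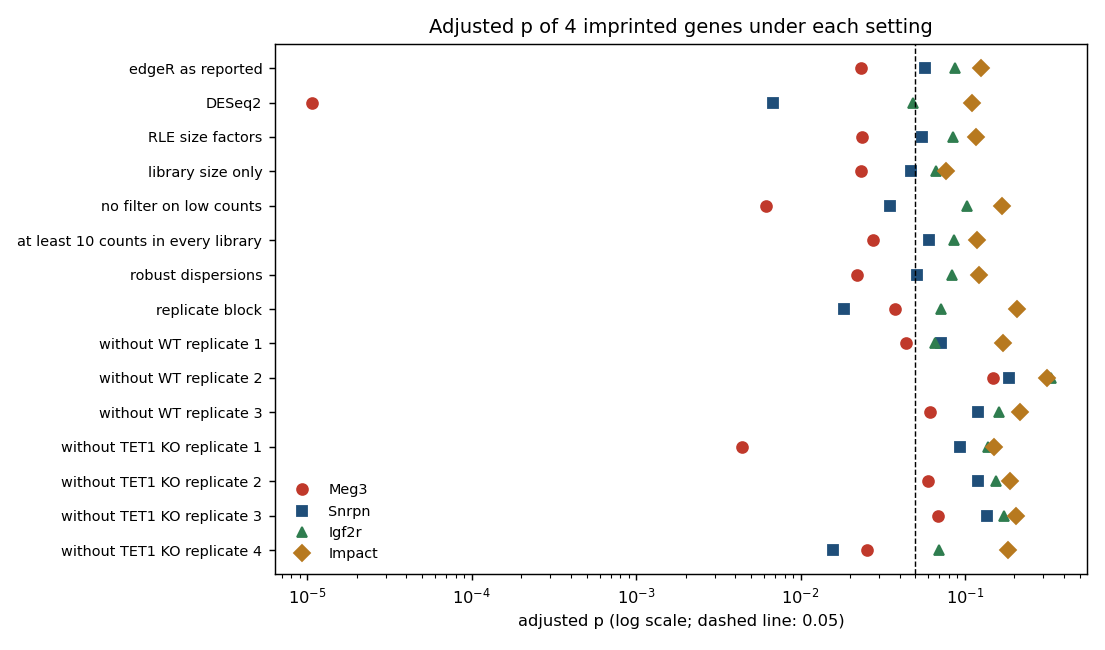
Adjusted p (log axis, dashed line at 0.05) of Meg3, Snrpn, Igf2r and Impact for the reported test in the top line and 14 alternative settings under it. Meg3 is left of the line in 10 of the 14 alternatives, Snrpn in 5, Igf2r in 1 and Impact in 0.

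Peg3, Mest and Plagl1 were measured well above the floor and overlapped between the genotypes. Peg3, a zinc finger protein with a part in growth and metabolism, had 5.43 to 7.68 CPM in WT and 4.36 to 11.02 CPM in TET1 KO livers, so that the highest and the lowest of the 7 livers were both TET1 KO. Its log2 fold change was 0.23 (SE 0.28, 95% interval -0.40 to 0.85, edgeR adjusted p = 0.630). Mest, a hydrolase-fold protein linked to fat cell growth, had 2.10 to 3.79 CPM in WT and 1.48 to 3.58 CPM in TET1 KO livers, and its log2 fold change was -0.41 (SE 0.32, 95% interval -1.13 to 0.30, edgeR adjusted p = 0.429). Plagl1 (also Zac1), a zinc finger factor that sits above several imprinted genes in a growth network, had 1.10 to 2.17 CPM in WT and 0.974 to 2.44 CPM in TET1 KO livers, and its log2 fold change of -0.01 had a 95% interval of -0.86 to 0.85. Replicate 1 was the highest liver of its own genotype for both Peg3 and Plagl1. Plagl1 is on chromosome 10, as is Tet1, 49.7 Mb away.

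Neighbours of these genes gave few readable values. Usp29, next to Peg3, had 1 count in 1 liver, Zim1 at most 8 counts, and Zfp264 and Klf14 were at 0 in all 7 livers. Copg2, which encodes a coat protein of Golgi vesicles and overlaps Mest end to end by 913 bases, gave a log2 fold change of -0.46 (SE 0.21, edgeR adjusted p = 0.193). The Copg2 groups overlapped, at 18.5 to 28.3 CPM in WT and 11.02 to 19.1 CPM in TET1 KO livers.

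H19, Igf2 and Peg10 lay near the floor of 3 counts per liver. H19, a maternally expressed noncoding RNA that is abundant in fetal liver, had 10, 13 and 4 counts in WT and 2, 8, 7 and 13 in TET1 KO livers. The TET1 KO livers held both the lowest and, at 0.603 CPM, the highest value, and the log2 fold change was -0.03 (SE 0.56, 95% interval -1.26 to 1.20, edgeR adjusted p = 0.977). Igf2, the fetal growth factor whose transcription in mouse liver ends after birth, had 7, 6 and 7 counts in WT and 8, 5, 4 and 4 in TET1 KO livers. Peg10, derived from a retrotransposon and needed in the placenta, had 14, 10 and 4 counts in WT and 11, 2, 5 and 6 in TET1 KO livers. Igf2 and Peg10 did not pass the filter on low counts, so no call was possible. Without the filter, edgeR gave Igf2 a log2 fold change of -0.14 (95% interval -1.35 to 1.08) and Peg10 -0.42 (95% interval -1.67 to 0.82). H19 in TET1 KO replicate 1 and Peg10 in TET1 KO replicate 2 were at or under the floor, and a change of up to 2-fold in either direction was not detectable for H19 or Igf2 at this depth. Ins2, beside Igf2, was at 0 counts in all 7 livers. Sgce, which shares the Peg10 locus and encodes epsilon-sarcoglycan, gave a log2 fold change of -0.05 (95% interval -0.58 to 0.49), Asb4 reached at most 16 counts, and Ppp1r9a, an actin-binding scaffold protein, gave 0.95 (SE 0.30, edgeR adjusted p = 0.0965, DESeq2 adjusted p = 0.0301) with overlapping groups.

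Levels of the genes can be ranked only per length, for which exon lengths of an older annotation (GENCODE M1) were matched by identifier for 9 of the 10 genes, all but Snrpn. The length was the union of all annotated exons, 18089 bases for Meg3 against 2372 for H19. The order below depends on that choice. On the scale of RPKM, reads scaled to exon length and library size, in WT livers, Impact was highest at 4.52 ± 0.168 (SD, n = 3), followed by Igf2r at 3.24 ± 0.445, Mest at 0.786 ± 0.225 and Peg3 at 0.475 ± 0.0898. Plagl1 at 0.201 and H19 at 0.176 followed, then Meg3 at 0.0734, Peg10 at 0.0663 and Igf2 at 0.0594. Impact and Igf2r did not overlap over the 3 WT livers, Mest and Peg3 did, Plagl1 and H19 did, and Meg3, Peg10 and Igf2 overlapped as well. The lowest WT value of H19, 0.0931, also lay within the ranges of Meg3 and Peg10. In TET1 KO livers Meg3 had a mean of 0.323 on this scale, beside Plagl1 at 0.201 and H19 at 0.174. The ranges over the 4 livers overlapped between Meg3 and each of Plagl1 and H19, and in TET1 KO replicate 1 Meg3 was lower than Plagl1, at 0.138 against 0.335.

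Over the 7 livers, the gene outside the lists whose log2 CPM was most like that of Meg3 was Cela1, at a Pearson r of 0.984. It was Trappc6b for Snrpn (r = 0.989), Selenot for Igf2r (r = 0.993), Orc6 for Impact (r = 0.976), Eif4g3 for Peg3 (r = 0.993), Gm37226 for Mest (r = 0.968), Tmc8 for Plagl1 (r = 0.974) and Gm18101 for H19 (r = 0.984). Each is the highest of many correlations over the same 7 libraries, which share depth and genotype, and is given as a description.

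Of 57 other imprinted genes listed, 56 were matched in the tables, 31 passed the filter and 0 were called by edgeR, where 5 had an unadjusted p under 0.05 (26.3% of all genes did) and DESeq2 called 3 (9.49% of all genes). Among the 20 tested that are usually maternal, 10 had a fold change above 0 and 10 below, and among the 11 paternal genes 4 and 7. The median log2 fold change of the 31 was -0.05, and their range was -1.20 for Ndn to 1.70 for Rian. Groups did not overlap for 1 gene upward and 3 downward, against 11.7% and 10.8% of all genes. Beside Slc22a3, the noncoding RNA Peg13 was lower in all TET1 KO livers than in WT livers, at 4.33, 5.97 and 5.08 CPM in WT against 3.76, 3.59, 2.30 and 3.29 CPM (log2 fold change -0.67, SE 0.22, edgeR adjusted p = 0.102). Kcnq1ot1, the noncoding RNA that silences its domain on the paternal chromosome, gave 0.55 (95% interval -0.13 to 1.24).

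**Figure D4:**
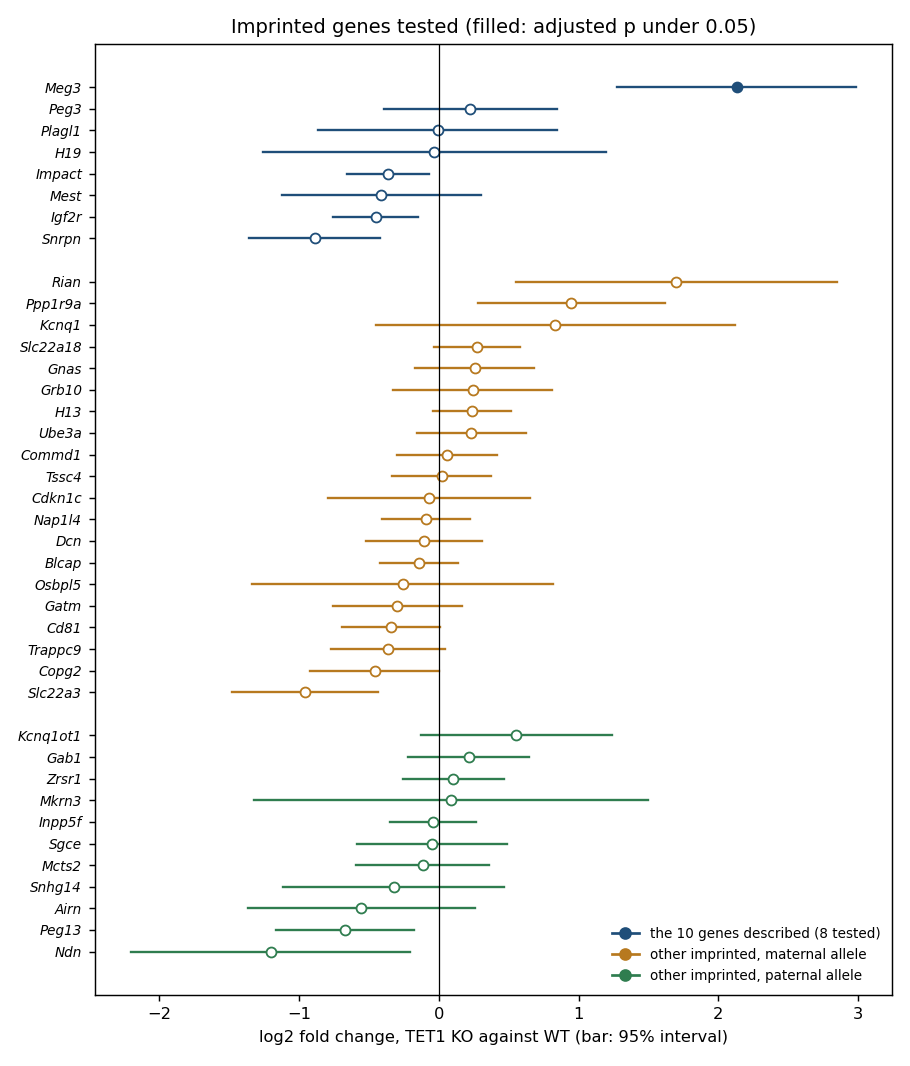
Log2 fold change, TET1 KO against WT, with its 95% interval for the 8 tested genes of the 10 (blue) and for other imprinted genes usually read from the maternal (orange, 20 genes) or the paternal allele (green, 11 genes). The filled circle of Meg3 is the one with an adjusted p under 0.05, and Snrpn, Igf2r, Impact, Rian, Ppp1r9a, Slc22a3, Peg13 and Ndn are the open circles whose intervals do not reach 0.

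Among genes that set, protect or erase imprints, 18 were tested and 1 was called, against 2.02% of all genes. Tdg, the glycosylase that removes the bases TET enzymes produce, fell by 2.20 on the log2 scale (SE 0.21, edgeR adjusted p = 0.00191) and lies 19.7 Mb from Tet1 on chromosome 10. Dnmt3a, a de novo DNA methyltransferase, had 13.1 to 15.1 CPM in WT and 18.5 to 26.5 CPM in TET1 KO livers (log2 fold change 0.57, edgeR adjusted p = 0.0778, DESeq2 adjusted p = 0.0344). Arid4b, a chromatin protein linked to imprint maintenance, gave 0.51 with an edgeR adjusted p of 0.147.

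Of 15 tested genes of the IGF system, in which Igf2 and Igf2r act, 2 rose and 0 fell, against 0.874% and 1.15% of all genes. The list was made with earlier results of these data known, the rise of Igfbp2 among them, so the count is only a description. Igfbp2, a binding protein for IGF1 and IGF2, had 68.5 to 111.5 CPM in WT and 357.6 to 476.0 CPM in TET1 KO livers (log2 fold change 2.25, SE 0.20, edgeR adjusted p = 0.00116). Irs2, an adaptor below the insulin and IGF1 receptors, rose by 1.00 on the log2 scale (SE 0.22, edgeR adjusted p = 0.0436), but it kept an adjusted p under 0.05 in 2 of the 7 fits that leave out a liver (range 0.0448 to 0.176) and in 8 of all 14 alternatives. The call on Irs2 was lost without WT replicate 1, 2 or 3 or TET1 KO replicate 1 or 3, and with scaling to library size only (edgeR adjusted p = 0.0578). Igf1r, the receptor that IGF1 and IGF2 signal through, gave 0.98 (SE 0.22) at an edgeR adjusted p of 0.0502 and passed the threshold in 5 of 14 alternatives.

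Fetal liver genes and the regulators that silence them after birth gave 0 calls by edgeR among 7 tested, with 3 at an unadjusted p under 0.05, against 26.3% of all genes. Zbtb20, a repressor of fetal liver genes, had 219.2 to 282.2 CPM in WT and 325.8 to 637.4 CPM in TET1 KO livers and passed only in 4 of 14 alternatives (log2 fold change 0.86, edgeR adjusted p = 0.0645). Zfhx3 gave 0.80 (edgeR adjusted p = 0.103, DESeq2 adjusted p = 0.0455) and Trp53inp1 -0.69 (edgeR adjusted p = 0.125), both with overlapping groups.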

How the data were processed

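Counts of reads per gene were deposited by the authors for each liver, made with Trimmomatic 0.36, GSNAP and featureCounts 1.5.3 on GRCm38 per the submitters' processing notes. The counting's strand setting is not given in the sources used here, so overlapping and antisense genes are uncertain. Of 51431 entries, 5 repeated an identifier and were left out. Genes were kept by filterByExpr, scaled by TMM and tested with edgeR 4.0.16 (quasi-likelihood, R 4.3.3), with Benjamini-Hochberg adjustment over 14754 genes and a threshold of 0.05. DESeq2 1.42.0, other scalings and filters and left-out livers were alternatives. CPM uses TMM library sizes. In simulated counts of TET1 KO against WT (14484 genes tested, 200 changed), 58 of 96 2-fold and 95 of 104 4-fold changes were recovered with 10 false calls. A floor of 3 counts equals 0.124 to 0.211 CPM and covers counting error only. Named genes were the 10 genes, Tet1, genes at the same loci, each list's called genes and its 3 smallest p values, and the most correlated genes. The members and lists were chosen with earlier results of these data known. P-values measure the spread between single livers, and no batch is given in the labels. Libraries of 1 genotype differed beyond sampling noise (lowest chi-square per degree of freedom 24.95).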

Additional observations from a re-analysis of the deposited data

Results flagged for a closer look

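Of 46 measures examined over the 4 TET1 KO livers, 3 had 1 liver far from the others by Dixon's ratio of gap to range, at its 95% level, where chance at 1 in 20 gives 2.3. Rtl1 had a ratio of 1.0, from 1 count in TET1 KO replicate 1 and 0 in the others. Usp29 likewise had a ratio of 1.0, from 1 count in the same liver. The ratio is 1.0 for any gene with a single read in 1 liver, so it carries no information for these 2 genes. The summed adipocyte markers had a ratio of 0.976, with 20.6 CPM in TET1 KO replicate 2 against 0.278 to 0.767 CPM in the other TET1 KO livers. Without that liver, the log2 fold change of Meg3 was 2.01, against 2.13 with it, and its edgeR adjusted p was 0.0593.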

How the results depend on the processing

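Directions of Meg3, Snrpn, Igf2r, Mest and Impact held under all 14 alternatives. Meg3 passed the threshold in 10 of them, Snrpn in 5 and Igf2r in 1. The number of the 10 imprinted genes called was 1 as reported, 3 with DESeq2, 2 each with library size only and without the filter, and 0 to 2 with 1 liver left out. For the other imprinted genes the count was 0 as reported, 3 with DESeq2, 1 each with library size only and without the filter, and 0 to 1 with 1 liver left out. Over all genes, 298 were called as reported, 1400 with DESeq2 and 592 without the filter, and from 38 (without WT replicate 2) to 891 (without TET1 KO replicate 4). Of the calls, 43.3% were higher as reported, 25.5% of 419 with library size only, and 30.4% of 224 without WT replicate 3. The replicate numbers do not pair the livers (correlation of deviations 0.209, -0.123 and -0.0964 for numbers 1 to 3). With a replicate block, 1326 genes were called over all, 2 of the 10 and 3 of the other imprinted genes, Snrpn (edgeR adjusted p = 0.0184) and Slc22a3 (0.0481) passed, and Plagl1 gave 0.15 on the log2 scale. Replicate number 4 occurs only among TET1 KO livers, so in the blocked fit that liver does not bear on the genotype contrast. The log2 fold change of Snrpn was -1.11 with the block and -1.11 without TET1 KO replicate 4. The blocked fit is counted among the 14 alternatives but is not independent of the fit without that liver. With 1 liver left out, the uncalled log2 fold changes ran from -0.32 to 0.24 for H19 (in the 4 such fits where it passed the filter), -0.026 to 0.42 for Peg3, -0.35 to 0.37 for Plagl1, -0.17 to 0.084 for Sgce and -0.37 to 0.40 for Mkrn3, which was -0.011 with library size only. The cause was not tested. Depth limits what can be read for H19, Igf2 and Peg10, and for untested neighbours such as Dlk1, Rtl1 and Usp29.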
